A study of Mus musculus with 4 samples.

Results

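Caecal gene expression of mice lacking apolipoprotein E was compared with that of wild-type mice, both kept without prebiotics. The comparison was the difference of the log2 values of 2 arrays, apoE knockout (KO) minus wild type (WT), chosen by their titles from the 4 arrays of the series. Every group consisted of C57Bl/6 mice aged 21 weeks, fed an n-3 PUFA (polyunsaturated fatty acid) depleted diet, so no group fed these fatty acids entered. The KO array held RNA of KO mice on that diet alone, and the WT array RNA of WT mice on that diet alone. In the other 2 groups, 1 of KO and 1 of WT mice, this diet was supplemented during the last 15 days with a prebiotic, 250 mg daily for each mouse. Each array was hybridised with 100 ng of total RNA pooled from 6 mice, which had been picked for the quality of their RNA, and the labels do not say which part of Apoe the KO allele lacks. With 1 array a side there was no replicate check, no test was made, and "higher" and "lower" describe these pools only.

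The diet of the WT arrays is uncertain. For each of them, 3 label fields (title, source name and treatment) gave one diet and 1 field (description) gave the opposite one, while the KO labels did not conflict. The array titled without prebiotics is called the WT array here and the array titled with prebiotics the other WT array. Each difference is given against the first and, where it bears on the label, also against the second. Both differences use the same KO array, so that they match is no replicate. The pair with prebiotics (KO minus WT by title) shares neither of its arrays with the main difference, though it shares the other WT array with the alternative.

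Apolipoprotein E is a secreted protein on lipoprotein remnants and is the ligand through which the liver takes them up. Mice that lack it have raised blood cholesterol and develop atherosclerosis, and macrophages as well as the liver make the protein. The caecum is the pouch at the start of the large intestine where bacteria ferment fibre, and its wall holds an absorptive and mucus-secreting epithelium, a stroma with macrophages and fibroblasts, and layers of smooth muscle.

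A gene counted as measured if the KO or the WT array reached 3.0, the median log2 value of all probe sets with a single gene name, below which a value is near background and its fold is not well determined. Of 22180 genes, 12195 were measured. Their log2 differences had a median of 0.01 and an SD of 0.24 over genes, and the array medians lay between 2.92 and 2.93. At least 2-fold higher on the KO array, a limit of size, were 26 genes (0.213% of those measured), and at least 2-fold lower were 16 (0.131%). Against the other WT array the counts were 27 (0.221%) and 47 (0.385%), and in the pair with prebiotics 17 (0.139%) and 16 (0.131%). The sign of the difference was the same against both WT arrays for 7859 genes, or 64.4%. It was kept by 19 of the 26 genes at least 2-fold higher and turned in 7, and was kept by 12 of the 16 at least 2-fold lower and turned in 4. Past the 2-fold limit against both WT arrays were 7 genes higher (0.0574%) and 7 lower (0.0574%), all with gene names of their own. As context for these counts, 2 genes stood at least 2-fold above and 4 at least 2-fold below the other 3 arrays on the KO array, among 13081 genes measured on any array. The same counts were 5 and 7 on the WT array, 4 and 0 on the other WT array, and 11 and 2 on the KO array with prebiotics.

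Apoe itself had a log2 value of 3.90 on the WT array and 4.09 on the other WT array. It had 2.83 on the KO array, below the level taken as near background, and 3.13 on the KO array with prebiotics. Both KO values lay below both WT values, in the direction of the genotype labels. The KO array was 2.10-fold lower than the WT array and 2.40-fold lower than the other WT array. Since the KO value was near background, these folds are approximate, and the position of its 1 probe set relative to the deletion is not given in the sources used here.

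**Figure D1:**
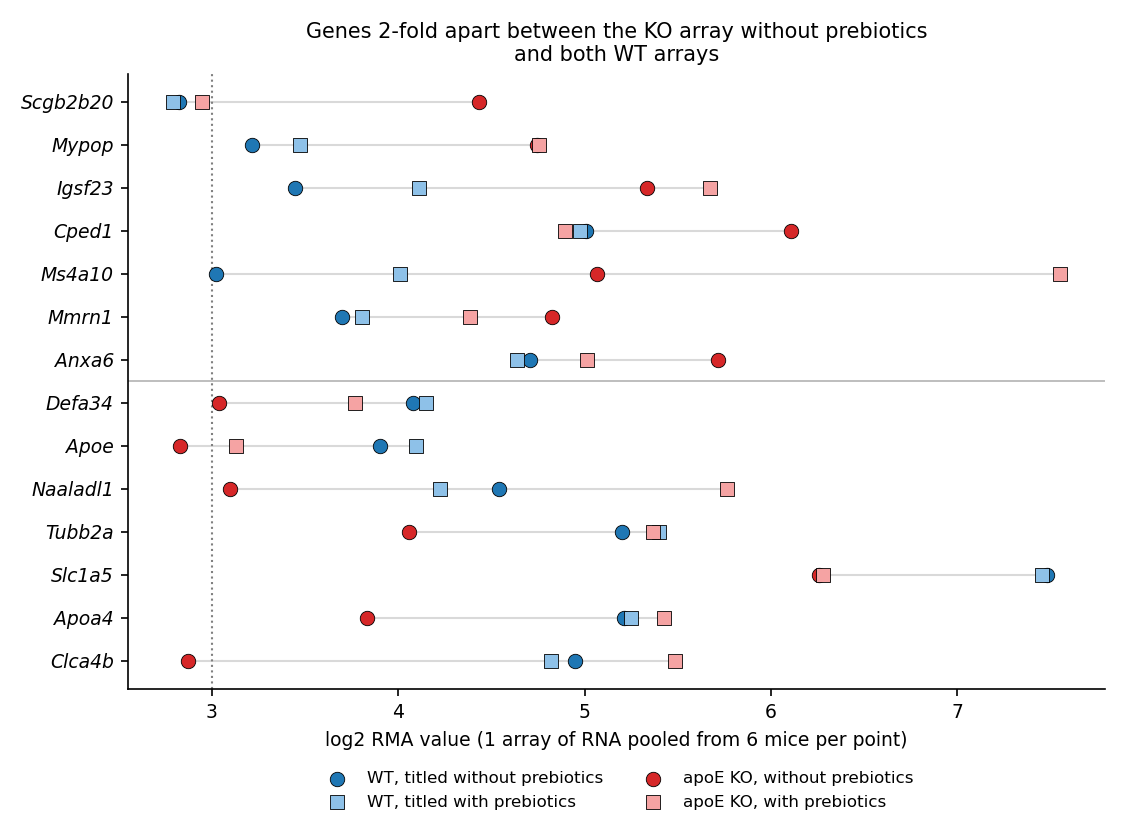
Log2 value on each of the 4 arrays (horizontal axis) for the 14 genes at least 2-fold apart from both WT arrays, 1 row per gene and 1 marker per array, with the dotted line at the near-background level of 3.0. The KO marker lies outside both WT markers in every row, and the KO array with prebiotics lies beside the WT markers for genes such as Clca4b, Apoa4 and Tubb2a and beside the KO marker for Slc1a5 and Mypop.

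Of the 7 genes higher against both WT arrays, Ms4a10 and Igsf23 had the largest differences from the WT array. Ms4a10, a tetraspanning membrane protein of the MS4A family, had 3.02 on the WT array, 4.01 on the other WT array, 5.07 on the KO array and 7.55 on the KO array with prebiotics. Both KO arrays lay above both WT arrays, and the KO array was 4.13-fold above the first and 2.08-fold above the second. Igsf23, an immunoglobulin superfamily membrane protein, had 3.44 and 4.11 on the WT arrays and 5.34 on the KO array, with 5.68 on the KO array with prebiotics. Its KO values did not overlap its WT values either. Mypop, a Myb-related transcriptional repressor, had 3.22 and 3.47 on the WT arrays against 4.74 on the KO array and 4.76 on the KO array with prebiotics. The KO arrays were alike and above both WT arrays, but Mypop had 3 probe sets, and their mean gave a difference of 0.53 in place of 1.53.

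For the other 4 higher genes, the KO array without prebiotics stood above the other 3 arrays. Scgb2b20, a member of the secretoglobin family of small secreted proteins, had 4.43 on the KO array against 2.82 and 2.79 on the WT arrays, both near background. Its value on the KO array with prebiotics was 2.95, so its difference of 1.61 was not seen between the arrays with prebiotics, where it was 0.16. Cped1, a protein with a cadherin-like and a PC-esterase domain, had 6.11 against 5.01 and 4.97, with 4.90 on the KO array with prebiotics. Cped1 had 2 probe sets, and their mean gave 0.51 in place of 1.10. Mmrn1 (multimerin 1), a protein of platelets and endothelial cells, had 4.83 against 3.70 and 3.80, with 4.39 on the KO array with prebiotics. Anxa6, a calcium-dependent membrane-binding annexin, had 5.72 against 4.71 and 4.64, with 5.01 on the KO array with prebiotics. For Mmrn1 and Anxa6 both KO values lay above both WT values, by smaller differences in the pair with prebiotics (0.58 and 0.37).

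Of the 7 genes lower against both WT arrays, Clca4b had the largest difference. Clca4b, of the calcium-activated chloride channel regulator family, had 4.95 and 4.82 on the WT arrays and 2.87, near background, on the KO array. The KO array was 4.21-fold and 3.86-fold lower, whereas the KO array with prebiotics had 5.49, above all others. Naaladl1, a peptidase of the intestinal brush border, had 4.54 and 4.23 on the WT arrays, 3.10 on the KO array and 5.77 on the KO array with prebiotics. The difference of the arrays without prebiotics was -1.44 and that of the arrays with prebiotics 1.54. Apoa4, the apolipoprotein that enterocytes secrete with chylomicrons, had 5.21 and 5.25 on the WT arrays against 3.83 on the KO array and 5.43 on the KO array with prebiotics. The low value was thus on the KO array without prebiotics only.

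Slc1a5, the neutral amino acid and glutamine transporter ASCT2, had 7.48 and 7.46 on the WT arrays against 6.26 on the KO array and 6.28 on the KO array with prebiotics. The arrays of each genotype were alike, and the KO array was lower by a log2 difference of -1.23 and -1.20 against the WT arrays and, with prebiotics, of -1.18. Slc1a5 had 2 probe sets, of which the other was near background, and their mean gave -0.58. Tubb2a, a beta-tubulin, had 5.20 and 5.40 on the WT arrays, 4.06 on the KO array and 5.37 on the KO array with prebiotics. Defa34, an alpha-defensin of Paneth cells, had 4.08 and 4.15, 3.04 and 3.77 in the same order. Because alpha-defensins form a family of very similar genes, this signal may not belong to Defa34 alone. Defa22, another member of the family, was not among the 7, and its sign turned between the WT arrays. It had 3.68 and 2.72 on the WT arrays, 2.84 on the KO array and 7.87 on the KO array with prebiotics. Of the 14 genes, 10 had the same sign in the pair with prebiotics, and 4 were at least 2-fold apart there too, namely Ms4a10, Igsf23, Mypop and Slc1a5.

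Several of these genes neighbour Apoe on chromosome 7, which is why that region was described apart. In the order of measured genes along the chromosome, by a RefSeq gene table of GRCm38.p6, Igsf23 was the 7th gene after Apoe. Mypop lay 29 genes and Slc1a5 39 genes before it, and Scgb2b20 lay 150 genes after it, at the edge of the window. The window of up to 150 measured genes to each side held 271 genes (120 before and 150 after Apoe, which lies near the end of the chromosome). In it 5 genes (1.85%) were at least 2-fold apart, against 37 of the other 11924 genes (0.31%), and those 5 were the ones past the limit against both WT arrays, against 9 genes elsewhere. Apoe, the gene knocked out, was itself counted among the 5. So was Scgb2b20 at the edge of the window, which differed by only 0.16 in the pair with prebiotics. The median size of the log2 difference was 0.19 in the window and 0.14 elsewhere. These shares are a description: the window was chosen with these genes known, and neighbouring genes are not independent.

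In all, 74 of the 271 genes of the window were lower against both WT arrays and in the pair with prebiotics. Lower than both WT arrays, whatever that pair showed, were 32.3% of all measured genes. The share lower in all these comparisons was not counted outside the window. Whether the 74 are more or fewer than elsewhere is therefore not known, and they cannot be called a trait of the region. Among the 74, Dyrk1b, Ceacam20, Plaur and Zfp180 followed Slc1a5 and Apoe, ordered by the smaller difference from the WT arrays. Ceacam20, a carcinoembryonic antigen-related adhesion molecule of the brush border and the 8th gene after Apoe, had 7.13 and 7.88 on the WT arrays against 6.39 on the KO array and 6.97 on the KO array with prebiotics. Both KO values lay below both WT values, with differences of -0.74, -1.49 and, with prebiotics, -0.91. Dyrk1b, a kinase 73 genes after Apoe, had a difference of -0.90, of -0.84 against the other WT array and, with prebiotics, of -0.45. Plaur, the receptor of urokinase and 20 genes after Apoe, had -0.65, -0.81 and, with prebiotics, -0.85, and Zfp180, a zinc finger protein 15 genes after Apoe, -0.74, -0.56 and -0.59.

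**Figure D2:**
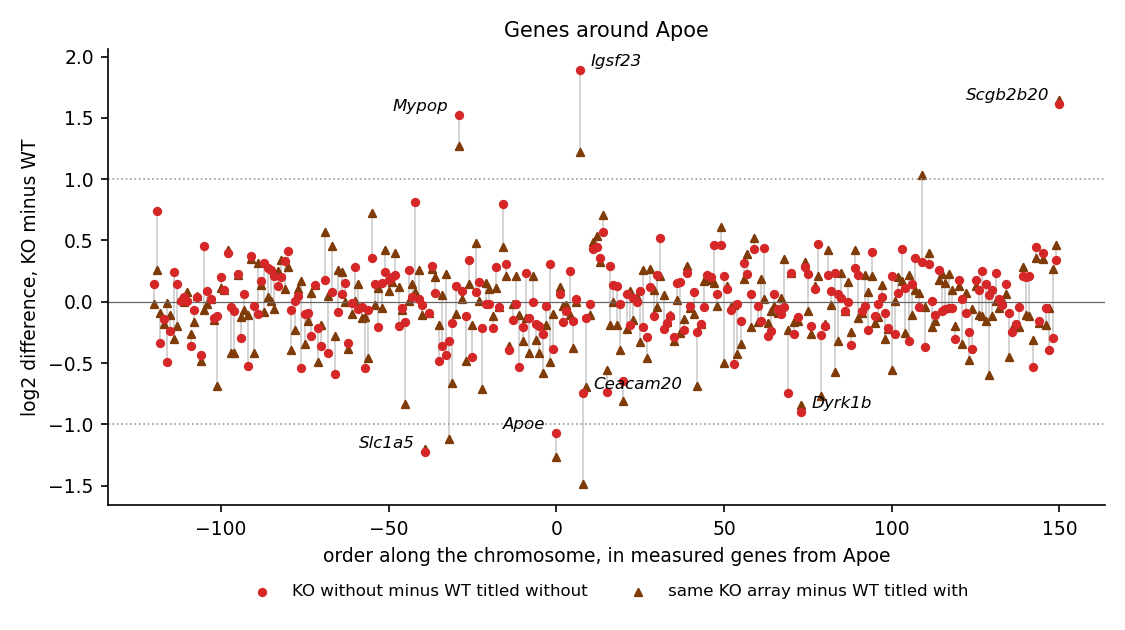
Log2 difference of the KO array from each WT array (vertical axis) for the 271 measured genes of the window around Apoe, by their order along the chromosome in genes from Apoe (horizontal axis), with circles for the WT array titled without prebiotics, triangles for the other and dotted lines at 2-fold. Slc1a5, Mypop, Apoe, Igsf23 and Scgb2b20 lie past the dotted lines with both markers, while most genes lie within 0.5 of 0.

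Other genes with large differences kept their sign against both WT arrays. Col6a1, a chain of collagen VI, was just under the limit, with a difference of 1.0 and, at 0.94, a smaller one against the other WT array. It had 2 probe sets, whose mean gave 0.46 against each WT array. Cpe, the carboxypeptidase that trims prohormones, had 0.96 and 1.12. Mxra8, a matrix remodelling-associated membrane protein, had 0.94 and 1.0, but the mean of its 3 probe sets, of which 2 had the same sign, gave 0.33 and 0.39. Ifi205, an interferon-inducible gene of the p200 family, had 0.89 and 1.32. Among the lower genes, Sfn (14-3-3 sigma), an epithelial adaptor protein, had 4.68 and 4.76 on the WT arrays against 3.73 on the KO array and 4.14 on the KO array with prebiotics. Ide, the insulin-degrading metalloprotease, was lower by nearly the same amount in each comparison, at -0.76, -0.75 and, with prebiotics, -0.76. Reg3b, a lectin that kills bacteria, had 4.17 on the WT array, 6.64 on the other WT array, 3.18 on the KO array and 6.51 on the KO array with prebiotics. Its difference of -0.98 became -3.46 against the other WT array, so its sign, but not its size, was free of the label question. H2al2a, a testis histone variant, and Med8, a Mediator subunit, had -0.94 and -0.97 against the WT array but -0.16 and -0.58 against the other, and 0.38 and 0.33 in the pair with prebiotics.

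Other large differences from the WT array shrank against the other WT array while keeping their sign. Nr1d2, a nuclear receptor of the circadian clock that represses transcription, had 4.31 on the WT array, 5.12 on the other WT array, 5.97 on the KO array and 5.76 on the KO array with prebiotics. Both KO values lay above both WT values, with a difference of 1.66 that became 0.85 against the other WT array. Mrc1, the mannose receptor of tissue macrophages, had 3.59 on the WT array against 4.91, 5.26 and 5.21 on the other WT, KO and KO prebiotic arrays. The WT array was thus the low one among 4, and the difference of 1.67 became 0.35 against the other WT array. C1qb, a chain of complement C1q that macrophages secrete, had 5.06 on the WT array against 5.85, 6.29 and 6.10. Its difference of 1.23 became 0.44. Hhip, which binds and sequesters hedgehog ligands, had 1.40 and 0.76. Pla2g10os, a transcript opposite the phospholipase gene Pla2g10, had 1.26 and 0.79, and whether the signal came from that strand is not given in the sources used here. Ang4, an antimicrobial ribonuclease, had 6.16 and 6.84 on the WT arrays and 7.42 on the KO array, but 5.71 on the KO array with prebiotics.

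The direction of some genes depended on which WT array was used. Hspa1a, an inducible heat shock protein, was higher than on the WT array by 1.18 and lower than on the other by a difference of -0.27. Akr1c18, which inactivates progesterone, had 1.18 and -0.30. Ly6m, of the Ly6 family of membrane-anchored proteins, had 1.09 and -0.57, and Fam118a had 1.08 and -0.02. Below the limit, Serpina3n, an acute-phase protease inhibitor, had 0.81 and -0.25, and Col1a2, a chain of collagen I, had 0.69 and -0.12, although the mean of its 2 probe sets gave 0.35 and 0.01 and so did not turn. Among the genes lower than on the WT array, Angptl4, an inhibitor of lipoprotein lipase induced by fasting and fatty acids, had 5.73 on the WT array against 3.71, 3.86 and 3.87 on the other WT, KO and KO prebiotic arrays. The WT array alone was high, and the difference of -1.87 became 0.16. Acot1, a fatty acyl-CoA thioesterase, had 5.47 on the WT array against 4.08, 3.99 and 3.41. Its sign held, but its difference of -1.48 became -0.09. Hmox1, which breaks down haem, had 5.08 on the WT array against 3.11, 3.85 and 3.78, and its difference of -1.23 became 0.74. Fabp4, a fatty acid carrier of adipocytes and endothelium, had -0.77 and 0.61, and Tfrc, the transferrin receptor, had -0.70 and 0.35.

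**Figure D3:**
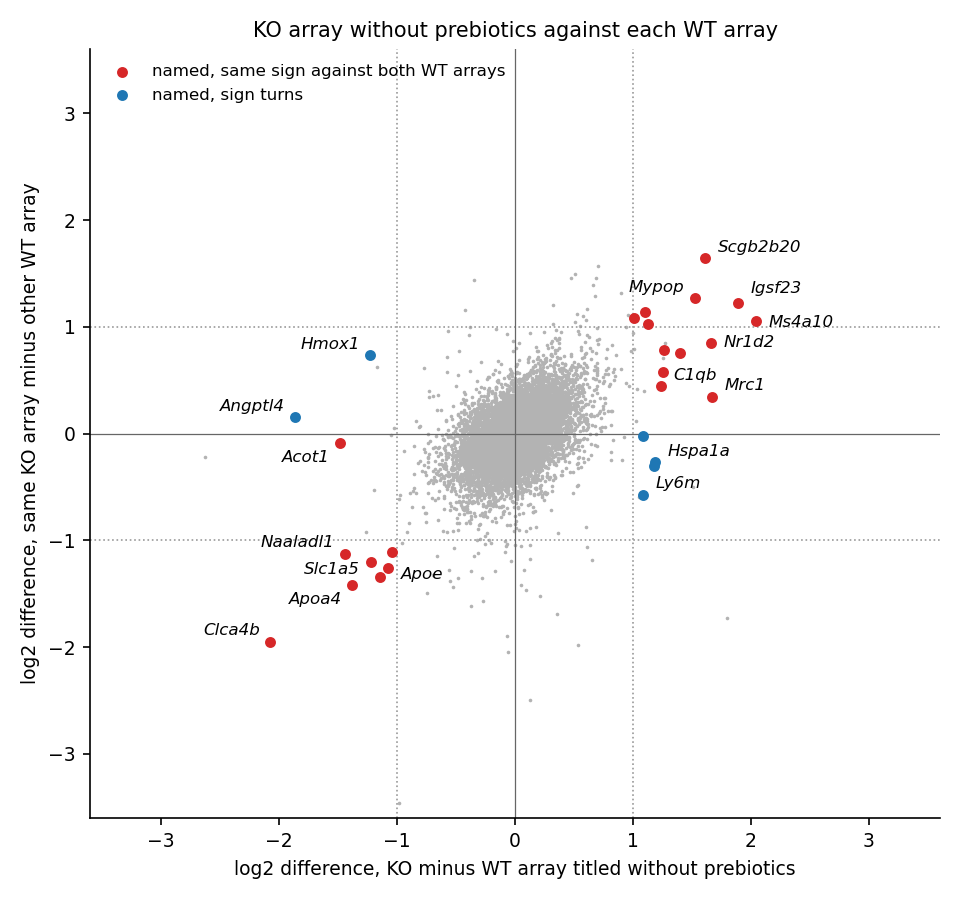
Log2 difference of the KO array from the WT array titled without prebiotics (horizontal axis) against the difference of the same KO array from the other WT array (vertical axis), 1 point per measured gene, with dotted lines at 2-fold and named genes coloured by whether their sign is kept. Scgb2b20, Igsf23, Clca4b and Apoa4 lie in the corners past both limits, while Angptl4, Hmox1, Hspa1a and Ly6m lie on opposite sides of 0; because both axes hold the same KO array, the slope of the cloud is not a result.

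Of the measured genes of the circadian clock, Nr1d2, Dbp, Nr1d1, Per1 and Ciart were higher and Arntl, Npas2, Cry1 and Nfil3 lower than on both WT arrays. The other 6 differed little from the WT array, though by up to 0.43 in the pair with prebiotics. In this feedback loop, the activators Arntl (BMAL1), Clock and Npas2 drive the repressor genes Per and Cry as well as Nr1d1, Nr1d2, Dbp and Ciart through E-boxes, and the receptors Nr1d1 and Nr1d2 repress Arntl, Npas2, Cry1 and Nfil3. Of 20 listed genes, 18 had a probe set and 15 were measured, of which 8 were higher and 7 lower than on the WT array, where 50.9% of all measured genes were higher. Against both WT arrays 7 were higher and 5 lower, where 32.2% and 32.3% of all measured genes were, so that the lower share is near that of all genes, and 1 of the 15, Nr1d2, passed 2-fold, against 0.344% of all measured genes. The medians of the list were 0.02 and 0.10 against the WT arrays. In the pair with prebiotics the median was 0.39, and 11 of the 15 were higher, beside 6601 of all 12195 measured genes.

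Among the repressors and outputs, Dbp, a PAR bZIP output factor, had 3.31 and 3.53 on the WT arrays against 4.06 on the KO array and 4.32 on the KO array with prebiotics. Ciart, a repressor of the activator pair, had 2.79 and 2.94, both near background, against 3.22 and 3.47. Both KO arrays lay above both WT arrays for each of them. Nr1d1 had 4.90 and 5.49 on the WT arrays against 5.63 and 5.98 on the KO arrays. Per1, a period protein, had 3.96 and 4.47 against 4.57 and 5.19, so that its difference of 0.60 was 0.10 against the other WT array. Among the activators and the genes repressed by the Nr1d receptors, Arntl had 7.44 and 7.39 on the WT arrays against 6.95 and 6.90 on the KO arrays. Npas2, a partner of Arntl, had 5.53 and 5.44 against 4.96 and 5.19. Cry1, a cryptochrome repressor, had 5.18 and 4.97 against 4.61 and 4.76. Nfil3, a bZIP repressor, had 3.58 and 3.30 against 2.84 and 2.94 on the KO arrays, both near background. For these 4 genes as well the KO and WT values did not overlap, and all 9 named clock genes, Nr1d2 included, had the same sign in the pair with prebiotics. The other 6 measured members, Clock, Per3, Cry2, Bhlhe40, Rora and Wee1, differed little from the WT array, from -0.06 for Per3 to 0.10 for Rora, with 0.02 for Clock. Against the other WT array they ranged from -0.16 for Bhlhe40 to 0.28 for Rora. In the pair with prebiotics they ranged from 0.15 for Clock to 0.43 for Per3. The time of day at which tissue was taken is not given in the labels, and its part in these values was not tested.

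**Figure D4:**
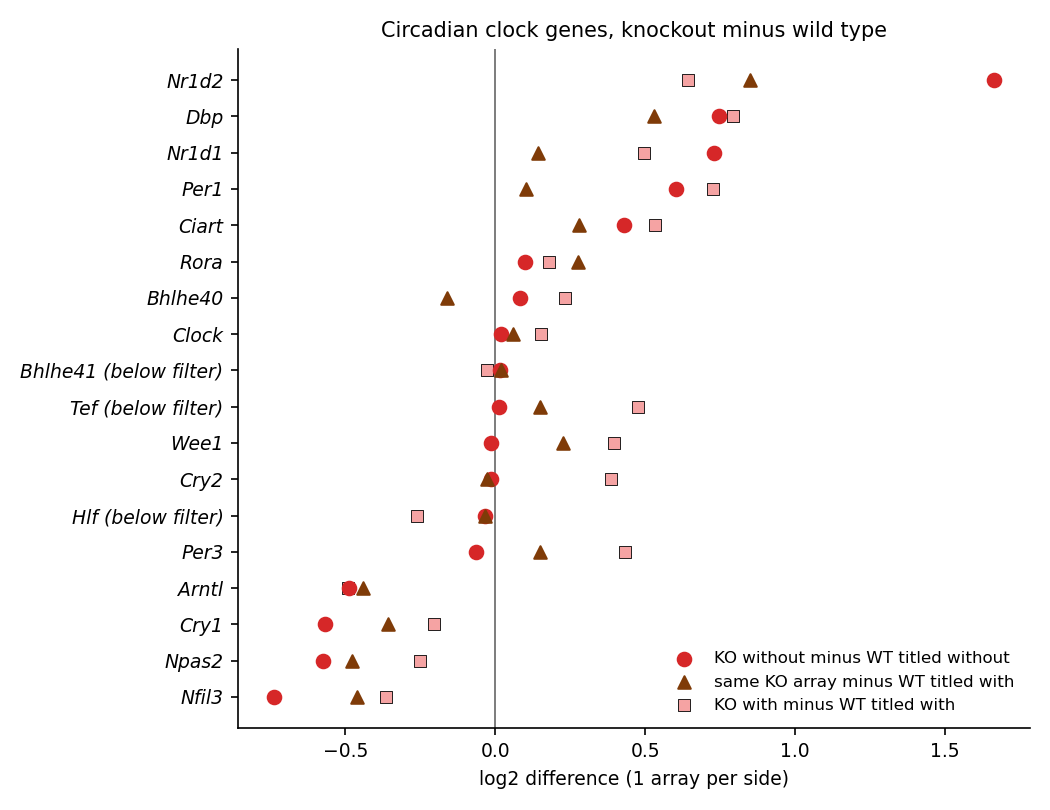
Log2 difference, KO minus WT (horizontal axis), for the 18 clock genes with a probe set, 1 row per gene, with circles for the arrays without prebiotics, triangles for the same KO array minus the other WT array and squares for the pair with prebiotics. All 3 markers lie above 0 for Nr1d2, Dbp, Nr1d1, Per1 and Ciart and below 0 for Arntl, Cry1, Npas2 and Nfil3, while the circle of Clock lies at 0.02.

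The promoters of 4 of these genes are shown because clock factors act through short motifs in them. They are the 250 bases before the start of transcription in the RefSeq annotation of GRCm38.p6, written 5′ to 3′ on the gene's strand, with capitals for the E-box CACGTG and for AGGTCA (or TGACCT on the other strand), the core element that receptors such as Nr1d1 recognise. They are Ciart (chr3:95882229-95882478, minus strand), Per1 (chr11:69098699-69098948, plus strand), Cry1 (chr10:85185055-85185304, minus strand) and Nr1d2 (chr14:18239107-18239356, minus strand).
Ciart: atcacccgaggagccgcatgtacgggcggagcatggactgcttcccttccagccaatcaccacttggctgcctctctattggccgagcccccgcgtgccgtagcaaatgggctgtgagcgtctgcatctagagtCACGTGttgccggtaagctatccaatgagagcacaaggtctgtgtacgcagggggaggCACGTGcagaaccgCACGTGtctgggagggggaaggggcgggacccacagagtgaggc
Per1: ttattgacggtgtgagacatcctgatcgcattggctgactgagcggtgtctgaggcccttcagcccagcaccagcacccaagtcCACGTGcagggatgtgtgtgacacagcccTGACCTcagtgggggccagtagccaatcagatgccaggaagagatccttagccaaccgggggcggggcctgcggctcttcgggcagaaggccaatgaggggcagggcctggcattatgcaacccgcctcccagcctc
Cry1: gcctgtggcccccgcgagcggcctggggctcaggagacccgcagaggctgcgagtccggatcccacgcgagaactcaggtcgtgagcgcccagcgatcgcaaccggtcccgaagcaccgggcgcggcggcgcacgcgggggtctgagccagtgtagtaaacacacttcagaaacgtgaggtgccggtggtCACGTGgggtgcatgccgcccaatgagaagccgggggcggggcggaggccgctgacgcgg
Nr1d2: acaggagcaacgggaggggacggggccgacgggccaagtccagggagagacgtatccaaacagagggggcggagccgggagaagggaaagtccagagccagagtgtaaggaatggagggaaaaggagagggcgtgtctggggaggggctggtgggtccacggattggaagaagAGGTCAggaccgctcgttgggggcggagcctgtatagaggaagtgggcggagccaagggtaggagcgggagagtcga

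Ciart, higher on the KO array, held 3 E-boxes, starting 116, 58 and 44 bases before its start. Per1, also higher, held 1 at 166 bases in the promoter shown, while its other promoter in the table held neither motif, and Cry1, lower, held 1 at 60 bases. Nr1d2, with the largest difference of the list, held no CACGTG in this window and 1 AGGTCA. The search covered both strands, and no motif found overlapped another. Of the 20 listed genes, 16 had a promoter that was counted (21 promoters). A single chromosome was left out of this count but not of the count over all promoters. An E-box was in 6 of the 21 promoters, belonging to 5 genes, against 6.02% of all 32851 promoters. The D-box TTATGTAA, bound by Dbp, was in 1 of the 21 promoters against 0.819% of all promoters, and AGGTCA in 4 of the 21 against 14%. The E-box was thus present in genes that were higher and in genes that were lower, and a match describes these letters only.

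Genes of smooth muscle were higher on the KO array throughout their list. Of 16 markers, 15 were measured, and all 15 were higher than on both WT arrays, against 32.2% of all measured genes. With the member that was not measured, 16 of 16 were higher than on the WT array and 15 than on both. The median difference of the measured members was 0.21, and 0.44 against the other WT array, and no member reached 2-fold. In the pair with prebiotics all 15 were higher as well, with a median of 0.38. Cnn1 (calponin), an actin-binding protein of contractile cells, had 9.34 and 8.91 on the WT arrays against 9.88 on the KO array and 9.66 on the KO array with prebiotics. Both KO values lay above both WT values. Myl9, a myosin light chain, and Tagln (transgelin) each had 0.35. Synpo2, a Z-disc protein, had 0.32 and, against the other WT array, 1.21, and Myh11, the smooth muscle myosin heavy chain, had 0.19 and 0.72. In tissue pools, more cells of a type and more RNA per cell cannot be told apart.

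Genes of fibroblasts and matrix were also higher than on the WT array, but fewer were higher than on both. Of 15 measured, 15 were higher than on the WT array, where 50.9% of all measured genes were, and 9 than on both, where 32.2% were. The medians were 0.34 and 0.05. Dcn, the proteoglycan decorin, had 7.77 and 8.02 on the WT arrays against 8.60 and 8.73 on the KO arrays, without overlap. Fbln1 (fibulin 1), Col14a1 and Fn1 (fibronectin) had differences of 0.48, 0.45 and 0.44, and of 0.39, 0.55 and 0.16 against the other WT array. Col1a1, a chain of collagen I, had 0.36 but -0.93 against the other WT array.

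Of 13 measured macrophage markers, 12 were higher than on the WT array and 7 than on both, against 50.9% and 32.2% of all measured genes, with medians of 0.32 and 0.13, and 0.07 in the pair with prebiotics. Beside Mrc1 and C1qb, the haemoglobin scavenger receptor Cd163 had a difference of 0.59 against each WT array. Cx3cr1, the fractalkine receptor, had 0.62 and 0.28, and Csf1r, the receptor of macrophage colony-stimulating factor, 0.36 and 0.13. Cd68, a lysosomal protein of macrophages, had 0.39 but -0.23 against the other WT array. Of 13 endothelial markers, 9 were higher than on the WT array and 8 than on both, beside the same shares of all genes (median 0.07). Lyve1, a marker of lymphatic vessels, had 5.43 and 5.41 on the WT arrays against 5.95 and 5.87 on the KO arrays. Cdh5, the cadherin of endothelial junctions, had 5.98 and 6.26 against 6.58 and 6.15, and Eng (endoglin) 5.25 and 5.65 against 5.91 and 5.31, so for these the KO array with prebiotics lay among the WT values. Of 8 measured markers of enteric neurons and glia, 5 were higher and 3 lower than on the WT array. All 8 were higher than on the other WT array, and 5 than on both, beside the same shares of all genes. In the pair with prebiotics 4 were higher and 4 lower, with a median of 0.07. Over all 12 with a probe set, 6 were higher than on both. Stmn2, a neuronal tubulin regulator, had 3.81 and 3.42 against 4.35 and 3.69 on the KO arrays. Ano1, the chloride channel of interstitial cells of Cajal, had 4.25 and 3.79 against 4.80 and 4.08. For both, the KO array with prebiotics lay between the WT values. Of 6 measured markers of these interstitial cells and mesothelium, 5 were higher and 1 lower than on both, against 32.2% and 32.3% of all measured genes. In the pair with prebiotics 2 were higher and 4 lower, with a median of -0.03.

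Of 12 general epithelial markers, 8 were lower than on both WT arrays and 1 higher, against 32.3% and 32.2% of all measured genes, with medians of -0.08 and -0.11. In the pair with prebiotics 7 of the 12 were higher, with a median of 0.02. Krt18, a keratin of simple epithelia, had 8.15 and 7.81 on the WT arrays against 7.57 and 7.45 on the KO arrays, and Epcam, an epithelial adhesion molecule, had 10.31 and 10.24 against 10.10 and 10.33. Lgals4 (galectin 4) was the higher member, at 11.94 against 11.54 and 11.73. Of 10 colonocyte markers, 5 were higher and 5 lower than on the WT array, and 5 were lower and 0 higher than on both. In the pair with prebiotics 8 of the 10 were higher, with a median of 0.04. As a check of the labelled tissue, 0 of the 12 epithelial and 0 of the 10 colonocyte markers were near background on all 4 arrays. Of 16 small intestinal enterocyte markers, only 1 was, so these counts do not tell caecum from small intestine. The mean log2 value of those 16 was 4.86 and 5.03 on the WT arrays, 4.76 on the KO array and 5.68 on the KO array with prebiotics. That of the 10 colonocyte markers was higher on each array, at 10.66 and 10.96, 10.57 and 10.94 in the same order. The muscle, matrix and epithelial lists were measured on the same arrays as the genes above, and the part of tissue composition in the other results was not tested. Of 11 exocrine pancreas markers, 8 were near background on all 4 arrays, as were 7 of 11 neutrophil, 7 of 11 mast cell, 5 of 11 T cell and 4 of 9 liver markers. Of 7 measured B cell markers, 6 were lower than on the WT array and 4 than on both, where 32.3% of all measured genes were. Their median was -0.21, and all 7 were lower in the pair with prebiotics, with a median of -0.65.

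**Figure D5:**
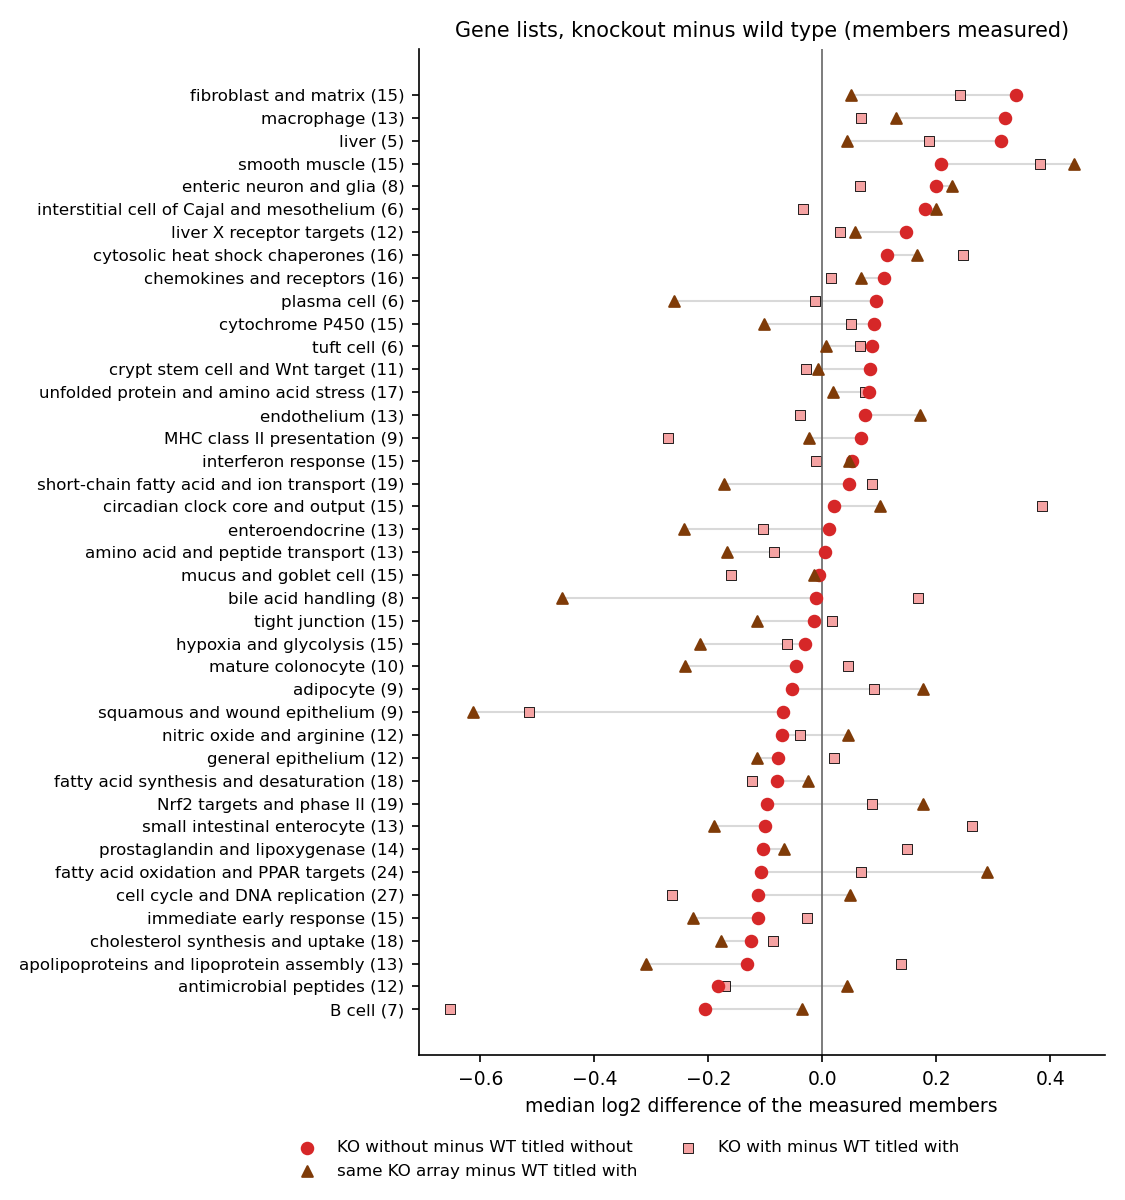
Median log2 difference of the measured members (horizontal axis) for each gene list with at least 5 measured members, whose number stands in brackets, for the KO array minus the WT array titled without prebiotics (circles), the same KO array minus the other WT array (triangles) and the pair with prebiotics (squares). Smooth muscle lies above 0 by all 3 markers (0.21, 0.44 and 0.38), and fatty acid oxidation and PPAR targets change side between the WT arrays (-0.11 and 0.29).

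In lipid handling, the lists differed in how far they depended on the WT array. Cholesterol synthesis and uptake, the genes that sterol-sensing transcription factors control, had 14 of 18 measured members lower than on the WT array and 12 lower than on both, against 32.3% of all measured genes. All its differences were small, between -0.33 and 0.19, with medians of -0.12 and -0.18, and -0.09 in the pair with prebiotics. Among apolipoproteins and genes of lipoprotein assembly, 9 of 13 were lower than on both WT arrays and 1 higher, with medians of -0.13 and -0.31 but 0.14 in the pair with prebiotics. Apoa4 and Apoe were the 2 members of this list at 2-fold. The list of liver X receptor targets covers cholesterol export and other lipid handling. Of its 12 measured genes, 6 were higher and 3 lower than on both, against 32.2% and 32.3% of all measured genes. Over all 14 with a probe set, 6 were higher and 5 lower, so the imbalance came largely with the filter. Apoe, the gene knocked out, was among the lower ones. Pltp, the phospholipid transfer protein, had the largest difference among the higher ones, at 0.89, 0.61 and, with prebiotics, 0.57.

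Fatty acid oxidation and PPAR targets, the genes induced by fatty acids, changed side with the WT array. Of 24 measured, 19 were lower than on the WT array, with a median of -0.11, but 22 were higher than on the other WT array, with a median of 0.29. Only 5 were higher and 2 lower than on both, and Angptl4 and Acot1 were the members past 2-fold. Nrf2 targets and detoxifying enzymes did likewise, with 13 of 19 lower than on the WT array (median -0.10) and 15 higher than on the other (median 0.18). The direction of both lists depends on which label of the WT arrays holds. Of all 12195 measured genes, 50.9% were higher than on the WT array and 5966 genes higher than on the other. Against both WT arrays 32.2% were higher and 32.3% lower, and 0.344% passed 2-fold against the WT array.

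Some transport genes of the epithelium were close to the WT array on the KO array and far from the other WT array. Of 8 measured genes of bile acid handling, 5 were lower than on the WT array and 6 than on the other, with medians of -0.01 and -0.46. Slc10a2, the apical bile acid uptake transporter, had 5.21 on the WT array and 5.34 on the KO array against 7.84 on the other WT array and 8.03 on the KO array with prebiotics. Arrays titled with the same diet had like values, and the difference of 0.13 became -2.50 against the other WT array. Slc5a8, a short-chain fatty acid transporter, had 6.30 and 6.65 against 8.34 and 8.50, and Slc3a1, a subunit of a basic amino acid transporter, had 5.49 and 6.03 against 8.01 and 8.06, in the same order. Gcg, the precursor of glucagon-like peptides, had 6.22 and 6.83 against 7.90 and 8.04. For these genes the KO and WT arrays titled without prebiotics lay together, below both arrays titled with prebiotics. Slc9a3, the apical sodium-proton exchanger, had 8.07 and 8.63 on the WT arrays against 8.82 on the KO array and 9.27 on the KO array with prebiotics, above both WT values. Guca2b (uroguanylin) had 7.44 and 7.42 against 6.99, with 7.52 on the KO array with prebiotics. Of 19 transport genes for ions and short-chain fatty acids, 7 were higher and 7 lower than on both WT arrays. The shares of all measured genes were 32.2% and 32.3%.

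Of 15 tight junction genes, 8 were lower and 2 higher than on both WT arrays, against 32.3% and 32.2% of all measured genes. Their medians were -0.01 and -0.12. Cgn (cingulin) had 6.80 and 6.62 on the WT arrays against 6.32 on the KO array. Of 15 mucus and goblet cell genes, 5 were higher and 6 lower than on both, with medians of -0.01 against each. Of 12 measured antimicrobial genes, 4 were higher and 4 lower than on both, Ang4 (1.26 and 0.57) among the higher and Reg3b (-0.98 and -3.46) among the lower, with medians of -0.18 and 0.04. Of 12 genes of nitric oxide and arginine, which bear on vessel tone, the subject named in the study's title, 3 were higher and 3 lower than on both, all within -0.23 and 0.35 of the WT array.

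Of all measured genes, 50.9% were higher than on the WT array, and 32.2% were higher and 32.3% lower than on both WT arrays. Beside these shares, among stress and growth programmes, heat shock chaperones had 10 of 16 members higher than on the WT array and 6 than on both. Their median was 0.11, and in the pair with prebiotics 15 of 16 were higher. Hsph1, a large chaperone of the Hsp110 family, had 6.27 and 6.26 on the WT arrays against 7.09 and 7.50 on the KO arrays, without overlap. Immediate early genes, which respond to growth signals and handling, had 8 of 15 lower and 0 higher than on both WT arrays, with medians of -0.11 and -0.23. Hypoxia and glycolysis genes had 11 of 15 lower and 0 higher than on both, with medians of -0.03 and -0.22 and no difference from the WT array beyond -0.21 or 0.23. Of 9 measured genes of squamous and wound epithelium, 6 were lower than on both, Sfn and Plaur among them, with medians of -0.07 and -0.61, and -0.51 in the pair with prebiotics. Cell cycle and DNA replication genes had 18 of 27 lower than on the WT array but 15 higher than on the other, with medians of -0.11 and 0.05. Aurkb, a mitotic kinase, was lower by -0.44 against each WT array. Of 15 measured interferon response genes, 6 were higher and 3 lower than on both, all between -0.20 and 0.24 of the WT array. Over all 22 with a probe set, 6 were higher and 6 lower than on both, so the imbalance came with the filter. Of 16 measured chemokines and receptors, 9 were higher and 4 lower than on both. Over all 28 with a probe set, where the filter has no part, 12 were higher and 9 lower. Without the filter 31.6% of all genes were higher than on both. Ccl11 (eotaxin), which attracts eosinophils, had 4.65 and 4.74 on the WT arrays against 5.34 and 5.22 on the KO arrays.

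Of the other genes at least 2-fold higher than on the WT array, Mmp2, a matrix metalloprotease, had a difference of 1.03 and 0.42 against the other WT array, F2r, the thrombin receptor, had 1.03 and 0.11, and Zbtb16, a zinc finger transcription factor, had 1.01 and 0.79. The transcripts at least 2-fold apart that were counted by kind only were 5 immunoglobulin or T cell receptor segments and 1 small RNA among the 26 higher, and 2 microRNAs, 1 predicted gene and 3 small RNAs among the 16 lower. Such transcripts are short or have near-copies, so their signals are uncertain. The sequence of 1 of the microRNAs is shown, since it is the one whose sign was kept, in its mature form with the seed (bases 2 to 8, which pair with targets) in capitals, from RefSeq on GRCm38.p6 (chr4:109017669-109017690, plus strand).
miR-761: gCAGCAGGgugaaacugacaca

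The probe set named Mir761 had 5.29 and 4.96 on the WT arrays against 4.03 on the KO array and 5.71 on the KO array with prebiotics, so that the KO array without prebiotics was the lowest, at -1.26 and -0.93. Mir669m-1 had 5.30 on the WT array against 3.51, 4.13 and 3.88, and its difference of -1.17 became 0.63. Labelled total RNA on these arrays is measured under the gene's name, and the level of the mature microRNA was not measured separately.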

How the data were processed

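Each of the 4 groups was 1 array of pooled caecal RNA. The deposited values are log2 expression per probe set, made by the authors with Affymetrix Expression Console and RMA, per the submitters' processing notes, with no version or setting given. RMA subtracts background, sets the arrays to a common distribution and compresses differences near background. RMA also gives the log base. A genome build is not given in the sources used here. The number of arrays limits the precision.

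Of 41345 probe sets, 23521 had 1 gene symbol, 1814 several and 16010 none, the last 2 kinds staying unnamed. RefSeq (GRCm38.p6) held 99.1% of the gene identifiers and changed 0 symbols. The probe set with the highest mean stood for each of 1082 genes with several. Arrays were grouped by title. Differences were computed in Python 3.11.15 with numpy 2.4.6 and pandas 2.3.3, and cyclic loess in limma 3.58.1 under R 4.3.3. The computation was tested on simulated data.

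The members, the 46 gene lists (25 pathway and 21 marker lists) and the window around Apoe were chosen with earlier results of these data known. Selected for naming were Apoe and the 15 highest and 15 lowest differences. Added to them were the 12 highest and 12 lowest by the smaller difference from the WT arrays, and the 8 each way whose sign turned. Up to 6 members per list described, by size, and defining markers were selected too. The text describes only part of the genes selected, while counts over named genes cover all 277. Predicted genes, small RNAs, receptor families of smell and antigen receptor segments were counted only. Mir761, Mir669m-1, Col1a1, Zfp180, Mmp2, F2r, Zbtb16 and the clock genes beyond the first 6 were named after their values were seen. Alternatives were the other WT array, the WT mean, other filters, fold limits, probe set means and normalizations.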

Additional observations from a re-analysis of the deposited data

Results flagged for a closer look

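The direction of the genotype difference of Ang4 was opposite in the pairs of arrays without and with prebiotics, at 1.26 and -1.13 on the log2 scale. Naaladl1 differed in the opposite way, at -1.44 without and 1.54 with prebiotics. Each side is 1 array, and the difference between the pairs was not tested.

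Among probe sets without a single gene name, which the comparison leaves out, 300 were at least 2-fold higher and 245 at least 2-fold lower on the KO array. Of the 7376 measured without any name, 7.35% passed 2-fold, against 0.344% of the named genes, and 112 were higher and 69 lower against both WT arrays. Of the 899 measured with several names, 1 was higher and 2 lower.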

How the results depend on the processing

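No paired analysis was possible because each group had 1 array, and for the same reason no replicate could be left out. The WT label moved results most. Against the other WT array, 91 of 277 named genes changed sign, among them 6 past 2-fold: Hspa1a (-0.27), Akr1c18 (-0.30), Ly6m (-0.57), Fam118a (-0.022), Angptl4 (0.16) and Hmox1 (0.74). With the other WT array in place of the WT array in the filter too, 48 genes were lower, against 47 with the filter left as it was. At a limit of 1.5-fold, 159 genes were higher and 132 lower than on the WT array, and 55 and 29 than on both WT arrays.

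Of the 14 genes past the limit against both WT arrays, 14 kept it with no filter and 14 with median centring. With a filter at the 75th percentile 11 did, without Apoe, Defa34 and Scgb2b20, and with the mean over probe sets 11, without Cped1, Mypop and Slc1a5. With cyclic loess 13 did, without Anxa6. For the sign kept against the other WT array, the count was 14446 with no filter and 3634 at the 75th percentile, where more and fewer genes enter. Alternatives for that count were chosen after seeing the data.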
